A study of Homo sapiens with 6 samples.

Results

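The genes described here encode the transcription factors of the AP-1 and EGR families, read in T24, an established line of human bladder cancer cells, with and without oxidized low-density lipoprotein (ox-LDL), a plasma cholesterol particle altered by oxidation. Members were chosen by gene symbol: FOS, FOSB, FOSL1, FOSL2, JUN, JUNB, JUND, EGR1, EGR2 and EGR3. Of these 10, 9 had a probe set with that symbol, each exactly 1, among 17687 named genes on the array; EGR2 was not analysed here. The OXLDL group held 3 arrays of cells that spent 24 h with 20 µg/mL of ox-LDL, and the CON group 3 arrays of cells given vehicle for the same time. All cells had first been kept without serum for 12 h. A serum concentration of 10% is also given for the cells of both groups, and the titles name no genetic change in either group. The samples of a group are not said to be separate cultures, so p-values reflect the spread between these samples alone, and that spread may be technical. A free-text field of the labels names control and G9a siRNA in place of vehicle and ox-LDL, against all other fields. EHMT2, the gene of G9a, averaged 8.22 ± 0.14 in OXLDL and 7.85 ± 0.19 in CON on the log2 scale (SD, n = 3 each) and did not pass the test used below (limma adjusted p = 0.125). Groups follow the titles.

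Of 11 epithelial and urothelial markers measured, 8 lay above the 95th percentile of the negative control probe sets, a log2 value of 5.09, in at least 1 group. The adhesion protein CDH1 and the uroplakins UPK1B and UPK3A lay below it in both. All 4 mesenchymal markers lay above it, with VIM at 12.67 ± 0.04 in OXLDL and 12.74 ± 0.02 in CON (SD, n = 3 each). Of 6 markers of other cells, 5 also lay above it in at least 1 group. They were the macrophage marker CD68 (7.94 in OXLDL and 8.07 in CON), the endothelial markers CDH5 (6.81 in OXLDL and 6.77 in CON) and PECAM1 (5.39 in OXLDL and 5.70 in CON), the T cell marker CD3E (5.44 in OXLDL and 5.50 in CON) and the liver gene ALB (5.08 in OXLDL and 5.14 in CON). The leukocyte marker PTPRC lay below it in both groups (4.09 in OXLDL and 4.19 in CON). No marker of the 3 lists passed the test used below, and their part in the results was not tested. The third CON array stood apart from the rest: it correlated with the other arrays at 0.979 to 0.988 across probe sets, against 0.992 to 0.997 among the other 5. For the members, calls that turn on it are given with and without it.

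AP-1 is a pair of basic leucine zipper proteins. A JUN protein pairs with another JUN protein or with a FOS protein, and FOS proteins do not pair with each other. EGR proteins bind GC-rich DNA through zinc fingers. Most of these genes are immediate early genes, which growth factors, serum, cytokines and stress switch on within minutes, without new protein synthesis, through MAP kinases, serum response factor and CREB. The transcripts usually fade soon after, so a sample taken a day after treatment shows a late level and not the first response.

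EGR1, JUND and FOSL1 fell with ox-LDL and JUN rose, while JUNB, EGR3, FOS, FOSB and FOSL2 did not pass the test. A gene passed when limma's p, adjusted by the Benjamini-Hochberg method over all 21448 tested probe sets, was under 0.05. By that rule 4 of the 9 passed, against 6.77% of all probe sets. The 3 that were lower compare with 3.29% of probe sets, and the 1 that was higher with 3.48%. Members were chosen by symbol but with earlier results of these data known, so these shares are a description. The median log2 difference of the 9, OXLDL minus CON, was -0.42, against -0.03 over all probe sets. The arrays of the groups did not overlap for 6 of the 9, which also held for 36.8% of all probe sets. The number that passed was 5 without the third CON array, and 1 or 2 without any other single array. The share of all probe sets was 12.4% without the third CON array, and 1.42% to 3.76% without another. Values of different genes are not set against each other here, since probe sets differ in brightness. Nor can these values tell fewer expressing cells from less RNA per cell.

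**Figure D1:**
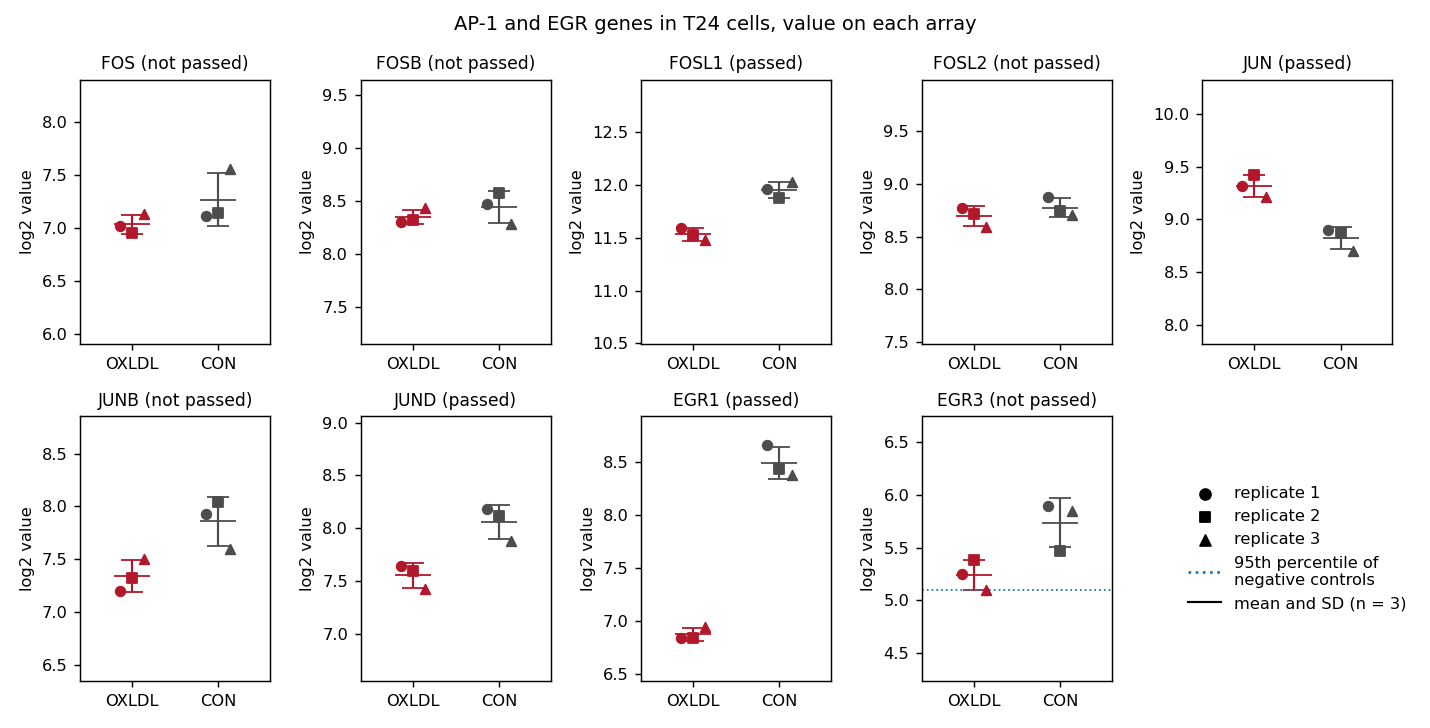
Log2 value of each AP-1 and EGR gene on each array, with OXLDL left and CON right in each panel; symbols mark replicates, bars the mean and SD of 3 arrays, and every panel spans the same range of log2 units. EGR1 shows the widest gap, with OXLDL arrays at 6.84 to 6.94 and CON arrays at 8.38 to 8.66, and the groups overlap for FOS, FOSB and FOSL2.

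The stretches before the start sites of EGR1, JUN and JUND are shown because these genes passed the test and hold matches to elements known from immediate early genes. Each is 250 bases upstream of the RefSeq start, on the gene's strand, in build GRCh38.p14: chr5:138465229-138465478 on the plus strand for EGR1, chr1:58784048-58784297 on the minus strand for JUN and chr19:18281623-18281872 on the minus strand for JUND. Capitals mark matches to the motifs named after them.
EGR1: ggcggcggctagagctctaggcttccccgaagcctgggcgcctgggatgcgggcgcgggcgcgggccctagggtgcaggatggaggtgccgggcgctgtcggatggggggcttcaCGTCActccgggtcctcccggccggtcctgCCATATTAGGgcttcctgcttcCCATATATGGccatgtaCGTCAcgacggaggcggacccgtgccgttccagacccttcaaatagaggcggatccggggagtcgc
JUN: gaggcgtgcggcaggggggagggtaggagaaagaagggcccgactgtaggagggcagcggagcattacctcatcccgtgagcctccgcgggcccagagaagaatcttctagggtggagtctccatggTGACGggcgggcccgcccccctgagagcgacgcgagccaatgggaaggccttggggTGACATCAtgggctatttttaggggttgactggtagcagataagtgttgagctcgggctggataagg
JUND: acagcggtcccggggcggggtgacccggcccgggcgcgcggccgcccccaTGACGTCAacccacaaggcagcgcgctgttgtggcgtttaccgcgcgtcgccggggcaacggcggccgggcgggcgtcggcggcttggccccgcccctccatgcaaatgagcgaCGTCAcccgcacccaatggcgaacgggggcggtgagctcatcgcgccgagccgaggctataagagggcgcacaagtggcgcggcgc

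EGR1 held 2 CArG boxes, the element bound by serum response factor, 105 to 96 and 83 to 74 bases before its start. A CArG box, searched on both strands, lay in 1.16% of 35116 promoters of the same length, and in 1 of the 7 members with a promoter sequence. JUN held TGACATCA, the AP-1-like element of its own promoter, 67 to 60 bases before the start, a motif found in 2.37% of promoters and in no other of the 7. JUND held the full cyclic AMP element TGACGTCA, 200 to 193 bases before its start, found in 1.65% of promoters and in no other of the 7. The core TGACG, which the full element contains on each strand, was in all 7 (FOS, FOSB, FOSL2, JUN, JUNB, JUND and EGR1), against 21.2% of all promoters. The AP-1 site TGAGTCA (4.2% of promoters) and the EGR sites GCGTGGGCG (0.72%) and GCGGGGGCG (4.72%) matched none of the 7 windows. Matches describe letters only, and bases further upstream than this window were not searched, so a motif absent here may lie outside it. Of the 7 genes with the core, JUN rose, EGR1 and JUND fell, and FOS, FOSB, FOSL2 and JUNB did not pass.

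**Figure D2:**
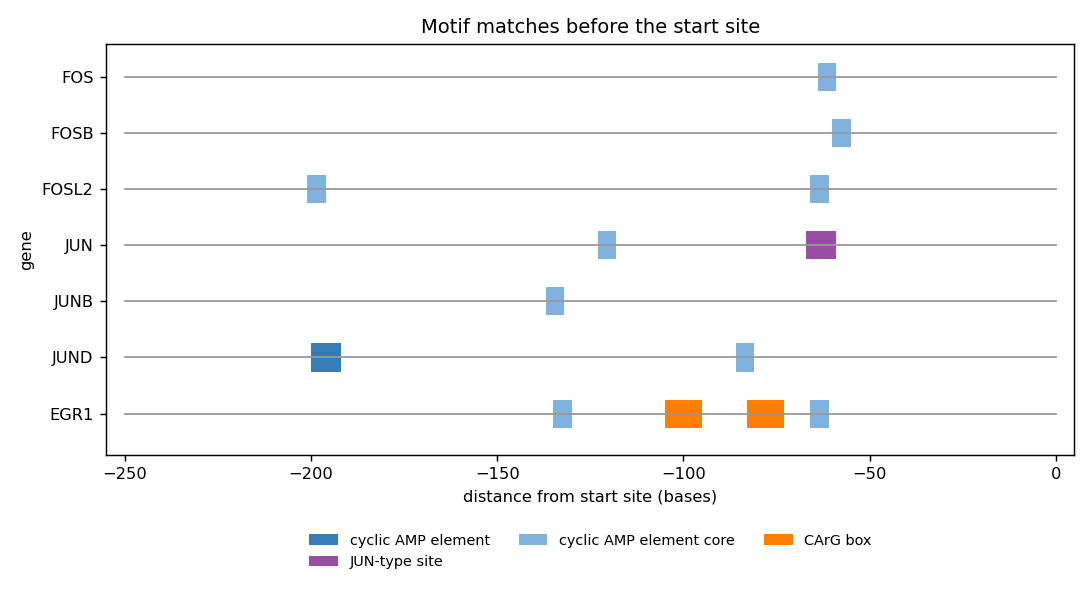
Motif matches in the 250 bases before the start site of the 7 AP-1 and EGR genes with a promoter sequence; the axis gives distance from the start in bases, and a core match inside a full cyclic AMP element is not drawn again. CArG boxes appear for EGR1, the JUN-type site for JUN, and the full cyclic AMP element for JUND.

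EGR1, a zinc finger factor induced by growth factors and also by lipids and stress, had log2 values of 6.84, 6.84 and 6.94 on the OXLDL arrays and 8.66, 8.43 and 8.38 on the CON arrays. All OXLDL arrays lay below all CON arrays. Its mean was 6.87 ± 0.06 in OXLDL and 8.49 ± 0.15 in CON (SD, n = 3 each), a 3.07-fold fall (log2 difference -1.62, SE 0.10, 95% confidence interval -1.85 to -1.39, limma adjusted p = 0.000671). It was the fall ranked 21 among the 21448 probe sets. Without any 1 array its difference ran from -1.67 to -1.53 and it passed in all 6 such fits (adjusted p = 0.00126 to 0.0103). EGR1 was the one member taken by the selection in the design text, a p no higher than 0.001 together with a change of 1.5-fold or more, which 2.31% of all probe sets met.

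EGR3, a relative with closely similar zinc fingers, had log2 values of 5.25, 5.38 and 5.10 in OXLDL and 5.89, 5.47 and 5.84 in CON. The groups did not overlap, but the second CON array lay close to the OXLDL arrays, and the OXLDL mean of 5.24 was only just above the negative control percentile. The log2 difference of -0.49 (SE 0.14, 95% confidence interval -0.81 to -0.17) missed the threshold (limma adjusted p = 0.0808). It passed without the second CON array (-0.62, adjusted p = 0.0459; 0.0459 to 0.241 over all alternatives). The within-array log2 ratio of EGR1 to EGR3 differed by -1.13 (SE 0.17) between OXLDL and CON, with an exact two-sided permutation p of 0.1, the smallest that 3 arrays against 3 allow. EGR3 lay too near the negative control percentile in OXLDL for its own fall to be sized, so this ratio is given as a description.

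JUN, a strong activator among the JUN proteins, was the one member that rose. Its log2 values were 9.32, 9.42 and 9.21 in OXLDL and 8.90, 8.87 and 8.71 in CON, so every OXLDL array lay above every CON array. The mean was 9.32 ± 0.10 in OXLDL and 8.83 ± 0.10 in CON (SD, n = 3 each), or 1.40-fold higher (log2 difference 0.49, SE 0.09, 95% confidence interval 0.27 to 0.70, limma adjusted p = 0.0271). The difference stayed between 0.43 and 0.54 without any 1 array. Its call was lost without any 1 array other than the third of CON (adjusted p = 0.0557 to 0.128) and held without that one (adjusted p = 0.0236).

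JUND, which is present in resting cells and varies less with stimulation than its relatives, had log2 values of 7.64, 7.60 and 7.43 in OXLDL and 8.18, 8.12 and 7.88 in CON. The lowest CON array, replicate 3, still lay above the highest OXLDL array. The mean was 7.56 ± 0.12 in OXLDL and 8.06 ± 0.16 in CON (SD, n = 3 each), a 1.42-fold fall (log2 difference -0.51, SE 0.11, 95% confidence interval -0.76 to -0.25, limma adjusted p = 0.0401). The call was lost without any 1 array other than the third of CON (adjusted p = 0.0905 to 0.152; 0.0119 without that one) and with equal array medians (-0.47, adjusted p = 0.0584).

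JUNB, often a weaker activator that restrains JUN, had log2 values of 7.20, 7.33 and 7.50 in OXLDL and 7.93, 8.05 and 7.60 in CON. The groups did not overlap, and the third CON array lay 0.095 above the highest OXLDL array. Its log2 difference of -0.51 (SE 0.14, 95% confidence interval -0.84 to -0.19) was as large as that of JUND but did not pass (limma adjusted p = 0.0746). Its SD was 0.15 in OXLDL and 0.23 in CON (n = 3 each). Without the third CON array it was -0.64 and passed (adjusted p = 0.0172; 0.00578 to 0.23 over all alternatives).

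JUN was also set against its relatives within each array, where only the change of a ratio between groups is read. The within-array log2 ratio of JUN to JUND was 0.99 higher in OXLDL than in CON (SE 0.05), and that of JUN to JUNB 1.003 higher (SE 0.16), each with an exact two-sided permutation p of 0.1. For JUND against JUNB the ratio differed by 0.01 (SE 0.17, exact permutation p = 0.9). Over the 7 pairs of members compared, 5 reached that smallest p, which is 0.14 after Benjamini-Hochberg adjustment. With 3 arrays against 3 this permutation test cannot give a p under 0.05, whatever the size of the change. It therefore cannot decide whether a ratio changed, and the changes are given with their SE as a description.

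**Figure D3:**
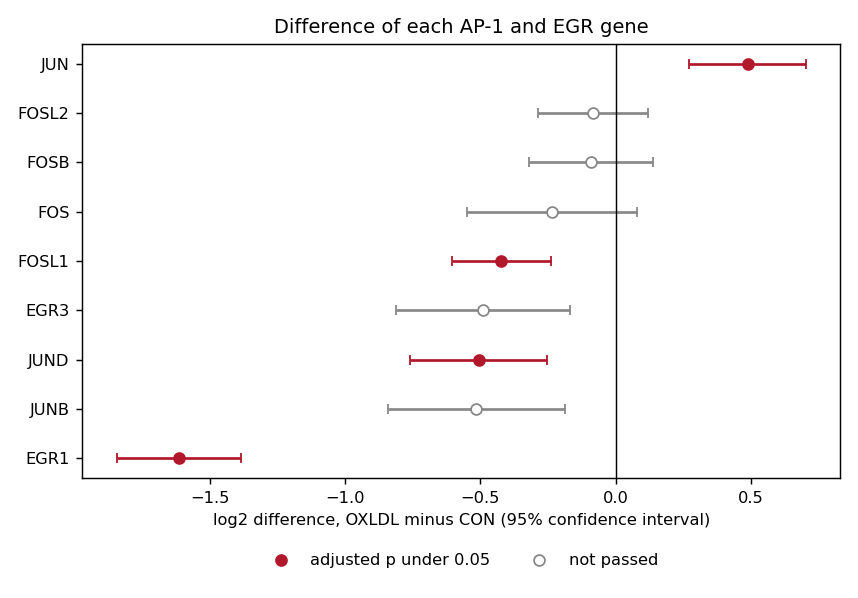
Log2 difference, OXLDL minus CON, of each AP-1 and EGR gene with its 95% confidence interval from limma; filled points passed at an adjusted p under 0.05. JUN lies at 0.49, EGR1 at -1.62, and the intervals of FOS, FOSB and FOSL2 include 0.

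FOSL1, also called FRA-1, which lacks the strong activation domain of FOS and is often abundant in carcinoma cells, was the FOS gene that fell. It had log2 values of 11.59, 11.53 and 11.47 in OXLDL and 11.96, 11.88 and 12.03 in CON. The groups were tight and did not overlap, and the lowest CON array stood 0.28 above the highest OXLDL array. The mean was 11.53 ± 0.06 in OXLDL and 11.95 ± 0.08 in CON (SD, n = 3 each), a 1.34-fold fall (log2 difference -0.42, SE 0.08, 95% confidence interval -0.60 to -0.24, limma adjusted p = 0.0253). Its unadjusted p of 0.000954 met the p of the design text's selection, but its fold change did not reach 1.5. The call was lost without any 1 array other than the third of CON (adjusted p = 0.0519 to 0.124) and held without that one (adjusted p = 0.0207).

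The other 3 FOS genes had overlapping groups. FOS, the founding member and a brief responder to serum, had log2 values of 7.02, 6.96 and 7.13 in OXLDL and 7.11, 7.14 and 7.56 in CON. Its highest value came from the third CON array: the log2 difference was -0.24 with all arrays (95% confidence interval -0.55 to 0.08, limma adjusted p = 0.3) and -0.09 without that array. FOSB, whose product resembles that of FOS, had log2 values of 8.30, 8.32 and 8.43 in OXLDL and 8.48, 8.57 and 8.28 in CON. The third CON array was the lowest of the 6, and the difference was -0.09 (95% confidence interval -0.32 to 0.14, limma adjusted p = 0.563), or -0.17 without it. FOSL2, or FRA-2, had log2 values of 8.77, 8.71 and 8.59 in OXLDL and 8.87, 8.74 and 8.71 in CON. Its groups overlapped, with a difference of -0.08 (95% confidence interval -0.28 to 0.12, limma adjusted p = 0.549) that ran from -0.12 to -0.03 without any 1 array. These intervals leave room for changes in either direction, so they do not show equal levels. The ratio of FOSL1 to FOSL2 differed by -0.34 between OXLDL and CON (SE 0.08), that of FOSL1 to FOSB by -0.33 (SE 0.15), and that of FOSL1 to FOS by -0.19 (SE 0.14), with exact permutation p of 0.1, 0.1 and 0.3.

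**Figure D4:**
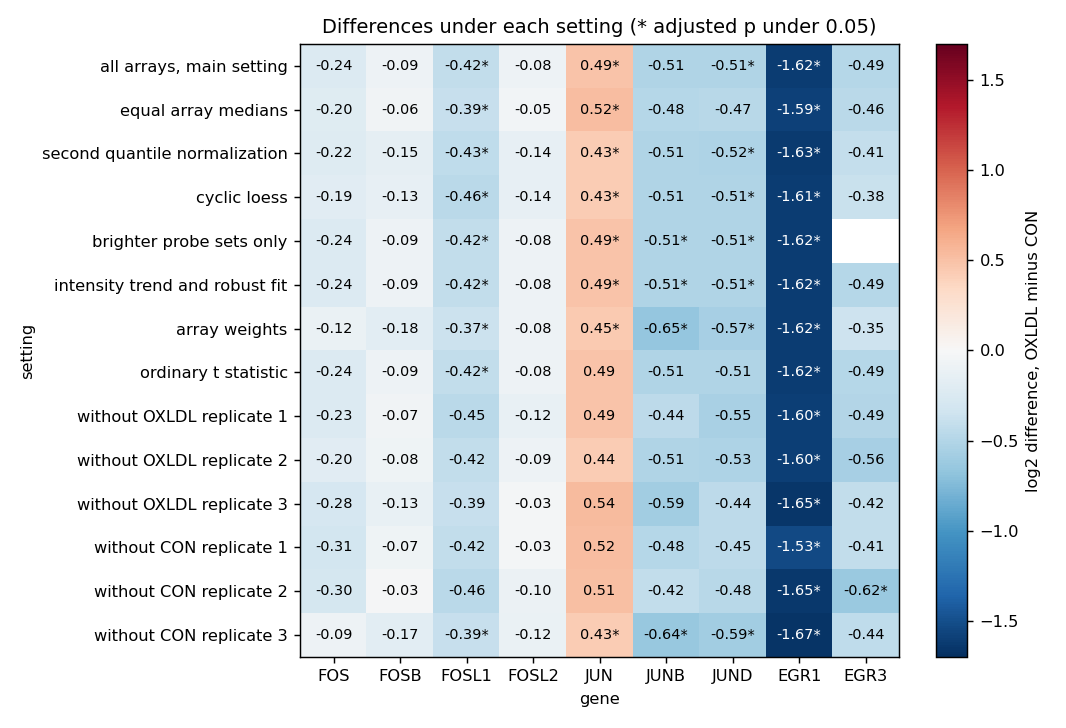
Log2 difference, OXLDL minus CON, of each AP-1 and EGR gene (columns) under each setting drawn (rows), with an asterisk where the adjusted p was under 0.05. The fit with the replicate number as a block is not drawn. The blank cell is EGR3, which was not among the brighter probe sets. EGR1 carries an asterisk in every row, and the signs of all 9 genes stay the same in the rows drawn.

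By a rule of likeness, the 3 named genes whose values followed each passing member most closely over the 6 arrays were listed. For EGR1 these were PTGS2, the inducible cyclooxygenase (Pearson r = 0.9996), TNFAIP3, a ubiquitin-editing inhibitor of NF-kB signalling (0.9993), and the desaturase SCD (0.999). Their log2 differences, OXLDL minus CON, were -4.13, -1.02 and -0.50. For FOSL1 they were the vesicle trafficking gene MON1B (0.9971), the membrane glycoprotein CDCP1 (0.9959) and the adaptor SH3KBP1 (0.9952), with differences of -0.33, -0.45 and -0.57. For JUN they were the ATPase gene AFG2A (0.9983), the nucleic acid-binding protein gene CNBP (0.9981) and the amino acid transporter SLC7A6 (0.9981), with differences of 0.31, 0.32 and 0.39. Of these SLC7A6 passed (limma adjusted p = 0.0451), and AFG2A and CNBP did not (limma adjusted p = 0.0584 and 0.0592). For JUND they were the endosomal tethering gene VPS11 (0.9978), the atypical kinase MAPK6 (0.9959) and the small GTPase RAB31 (0.9958), with differences of -0.14, -0.34 and -0.85. Here RAB31 passed (limma adjusted p = 0.0164), and VPS11 and MAPK6 did not (limma adjusted p = 0.258 and 0.0629). The genes listed for EGR1 and FOSL1 all passed. These correlations span 2 groups of 3 arrays and so follow mostly the step between the groups, and they are given as a description.

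Other leucine zipper factors that can pair with or resemble AP-1 either fell or did not pass. Of 13 measured, 5 fell and 8 did not pass, with a median log2 difference of -0.27. The 38.5% called compare with 6.77% of all probe sets. As with the lists below, these genes were chosen with earlier results of these data known, so the share is a description. CREB5 fell by 0.65 (SE 0.07), the stress response factor ATF4 by 0.50 (SE 0.07), the antioxidant regulator NFE2L2 by 0.41 (SE 0.06), and the small MAF protein MAFF by 0.61 (SE 0.11). The fifth, named after its value was seen, was the stress-induced ATF3, which fell by 0.68 (SE 0.14, limma adjusted p = 0.0411). Its call held without the third CON array (limma adjusted p = 0.0164) and was lost without any other 1 array. It was also lost with each of the 3 scalings, with an ordinary t statistic and with the replicate block. JDP2 and ATF2, both partners of JUN and named after their values were seen, had differences of -0.32 (limma adjusted p = 0.0642) and -0.27 (limma adjusted p = 0.0739). Without the third CON array JDP2 was at -0.36 and passed (limma adjusted p = 0.0228). There ATF2 was at -0.26 and did not pass (limma adjusted p = 0.0586), and MAFF was at -0.49 and still passed (limma adjusted p = 0.00686). Without any 1 array between 1 and 6 members passed, and CREB5 was the one called in all 6 such fits. The 6 were without the third CON array, where the share of all probe sets also rose, to 12.4%.

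Immediate early genes outside these families went both ways. Of 29 measured, 4 rose, 6 fell and 19 did not pass, with a median log2 difference of -0.07. This made 34.5% called, against 6.77% of all probe sets. PLK2, a polo-like kinase, rose by 0.98 (SE 0.09), the matricellular protein gene CCN1 by 0.73 (SE 0.07) and ZFP36L2, which encodes an mRNA-decay protein, by 0.51 (SE 0.07). IER3, a stress and NF-kB responsive survival gene, fell by 0.88 (SE 0.07). The other calls, named after their values were seen, were a rise of CCN2 (0.75) and falls of the nuclear receptor NR4A1 (-0.56), IER2 (-0.54), ARC (-0.45), PLK3 (-0.44) and KLF6 (-0.40). Without any 1 array between 3 and 12 passed, and IER3, PLK2 and CCN1 were the 3 called in all 6 such fits. The 12 were without the third CON array, where 12.4% of all probe sets passed.

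Transcripts of the regulators were called in shares of 5.26% for kinases upstream of these factors and 16.7% for serum response factor with its partners, against 6.77% of all probe sets. Of 19 measured kinases, MAP2K6, which activates p38, rose by 0.85 (SE 0.12, limma adjusted p = 0.0104) and 18 did not pass (median 0.04). RPS6KA4, RPS6KA1 and MAP2K3 had differences of 0.34, 0.22 and 0.23 (limma adjusted p = 0.0777, 0.0977 and 0.106). MAP2K6 lost its call without OXLDL replicate 2 or 3 (adjusted p up to 0.0637). Without the third CON array, where 12.4% of all probe sets passed, 3 kinases did. They were MAP2K6, RPS6KA4 and RPS6KA1 (limma adjusted p = 0.0106, 0.0455 and 0.0421). Of serum response factor and 5 partners, the ternary complex factor ELK3 fell by 0.41 (SE 0.09, limma adjusted p = 0.0396) and 5 did not pass (median -0.04). The cofactor MRTFB, SRF itself and ELK1 had differences of 0.45, 0.26 and -0.13 (limma adjusted p = 0.0792, 0.0943 and 0.286). Without the third CON array MRTFB was at 0.32 and passed (limma adjusted p = 0.0309), and SRF and ELK1 did not. ELK3 held its call without the third CON array and lost it without any other 1 array (adjusted p up to 0.144). Neither the EGR co-repressors NAB1 and NAB2 nor the relatives EGR4 and WT1 passed in limma. Their log2 differences were -0.28 for NAB1, -0.33 for NAB2, -0.26 for EGR4 and -0.18 for WT1, of which 2 had an unadjusted p under 0.05. An ordinary t statistic called 0. NAB1 was called among brighter probe sets only, with an intensity trend and robust fit, and with array weights (lowest limma adjusted p = 0.0201). Without the third CON array the differences of NAB1, NAB2, EGR4 and WT1 were -0.25, -0.18, -0.08 and -0.12, and none passed. Without other single arrays EGR4 reached -0.41 (OXLDL replicate 1), and WT1 -0.0975 (OXLDL replicate 2) and -0.29 (OXLDL replicate 3). Kinase and factor activity depend on phosphorylation, which transcripts do not show.

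Genes known as AP-1 targets fell in 8 of 16 measured members, rose in 1 and did not pass in 7, with a median log2 difference of -0.56. That is 56.2% called, where 3.29% of all probe sets fell and 3.48% rose. The list was chosen with earlier results of these data known, so its share is a description and not a test. The cytokine genes CXCL8, IL6 and LIF, the first a chemokine of neutrophils, had falls with log2 differences of -1.97 (SE 0.09), -1.54 (SE 0.13) and -0.98 (SE 0.07). EREG, an EGF receptor ligand, fell by 0.68 (SE 0.07). Of the calls named after their values were seen, the matrix proteases MMP1 and MMP3 had differences of -1.50 and -0.998, the urokinase gene PLAU and its receptor PLAUR -0.61 and -0.73, and the cyclin gene CCND1 0.36. MMP3 averaged 4.89 in OXLDL, below the negative control percentile, and 5.89 in CON. The count was 7 to 9 without any 1 array. CCND1, the one that rose, kept its call without the third CON array (adjusted p = 0.014) and lost it without any other 1 array (adjusted p up to 0.164). It was also lost with an ordinary t statistic, and with cyclic loess and a repeated quantile normalization, where the list had 0 higher and 8 lower. Several of these genes, CXCL8 and IL6 among them, are also targets of NF-kB and of other pathways, and the part of AP-1 in their falls was not tested.

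Genes known as EGR1 targets were mixed. Of 12 measured, 5 fell, 2 rose and 5 did not pass, with a median log2 difference of -0.28. Calls made up 58.3% of this list, against 3.29% of all probe sets for falls and 3.48% for rises. This list too was chosen with earlier results of these data known, and its share is a description. The 2 that rose were THBS1, which encodes the matrix protein thrombospondin-1 (1.25, SE 0.09), and F3, which encodes tissue factor (0.81, SE 0.07). NDRG1, a stress and hypoxia gene, fell by 1.07 (SE 0.08) and the angiogenic factor gene VEGFA by 0.80 (SE 0.07). The other falls, named after their values were seen, were those of FGF2 (-1.02), ICAM1 (-0.94) and PDGFB (-0.41). Of the 7, 6 passed in all fits without 1 array, and PDGFB did not. The signs of F3 and THBS1 were opposite to that of EGR1 itself. The part of EGR1 in the falls and rises of this list was not tested.

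**Figure D5:**
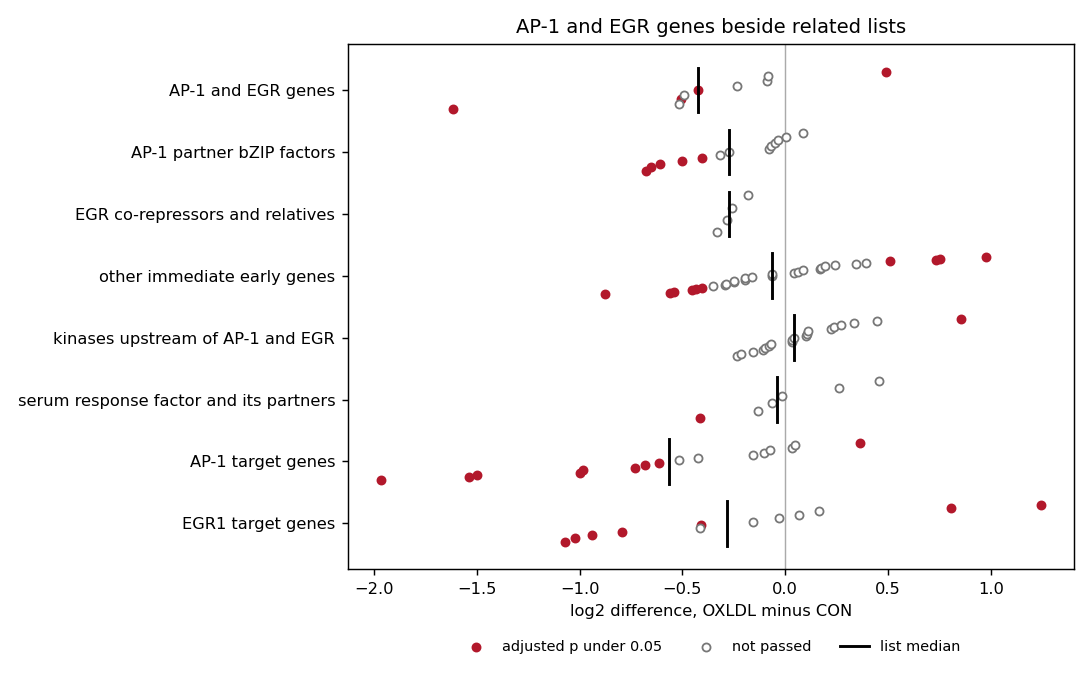
Log2 difference, OXLDL minus CON, of each gene in the AP-1 and EGR set and in 7 related lists (rows); filled points passed at an adjusted p under 0.05 and black bars mark list medians. The bZIP partners that passed all lie below 0, the other immediate early genes lie on both sides, and AP-1 targets have a median of -0.56.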

How the data were processed

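RNA of T24 cells was measured on 6 single-colour oligonucleotide arrays, labelled from 500 ng of total RNA per the labels' protocols. Per the submitters' processing notes, the authors made the deposited log2 values with RMA; no source used here gives its version, its settings, the genome build or the annotation. Values ran from 2.28 to 14.11. RMA equalises arrays and compresses dim probe sets. Precision is limited by the number of arrays.

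Of 24350 probe sets, 2902 controls were left out, leaving 21448, of which 17709 had 1 gene symbol in the platform annotation, 0 several and 3739 none. The negative control percentile is the 95th over the mean values of 612 negative controls. A gene with several probe sets was represented by the brightest.

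Groups followed titles. All arrays entered 1 limma fit (lmFit and eBayes, limma 3.58.1, R 4.3.3) of OXLDL minus CON, two-sided, Benjamini-Hochberg adjusted over all probe sets. Pairs of members were compared by exact permutation over arrays. The fit was checked on simulated data. Named were all members, the 4 genes of each list with the smallest p (a rule on values), and the 3 genes most alike to each passing member; the text says where a gene outside that rule was picked on its value. Members and lists were chosen with earlier results of these data known. Alternatives were 3 scalings, a brightness filter, a trend with robust fit, array weights, an ordinary t statistic, a replicate block, other thresholds and leaving out each array. Promoter sequences are from RefSeq, build GRCh38.p14, matched by symbol for 7 of 9 members; no coordinates of probe sets are given. Figures used matplotlib 3.10.9.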

Additional observations from a re-analysis of the deposited data

How the results depend on the processing

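No log2 difference of a member changed sign in 125 alternative values, and of 859 for other genes named with a difference 3 did, all of ETF1: -0.0117 with cyclic loess, -0.0303 with array weights and -0.051 without the third CON array, against 0.05, with a range of -0.051 to 0.109 without 1 array. Of the member values, 99 kept their side of the threshold. The number of members that passed was 4, and 2 with an ordinary t statistic, 1 at an adjusted p under 0.01, 1 by the selection of the design text, and 1 to 5 without 1 array. Calls over all probe sets numbered 1451 (6.77%). Among brighter probe sets only, a smaller number tested, they were 2608 (24.3% of those). They were 2649 (12.4%) with an intensity trend and robust fit, 3962 (18.5%) with array weights and 1087 (5.07%) with an ordinary t statistic. At an adjusted p under 0.01 they were 382 (1.78%), and by the design text's selection 496 (2.31%). Without 1 array they ran from 305 (1.42%) to 2670 (12.4%), the highest being without the third CON array. Without 1 array the differences ran from -0.46 to -0.39 for FOSL1, 0.43 to 0.54 for JUN, -0.64 to -0.42 for JUNB, -0.59 to -0.44 for JUND and -0.62 to -0.41 for EGR3. An ordinary t statistic left JUN (0.49, adjusted p = 0.0662) and JUND (-0.51, adjusted p = 0.101) not called, and equal array medians JUND (-0.47). JUNB passed among brighter probe sets (-0.51, adjusted p = 0.0335), with an intensity trend (-0.51, adjusted p = 0.0408) and with array weights (-0.65, adjusted p = 0.00578). With the replicate number as a block, FOSL1 (-0.42, adjusted p = 0.0891), JUN (0.49, adjusted p = 0.0576) and JUND (-0.51, adjusted p = 0.0523) were not called. There 1 member passed, and 550 probe sets (2.56%) did. Deviations of arrays with the same number correlated at -0.01, 0.03 and 0.02. Whether such arrays shared more than a number was not tested. Over all alternatives, list counts ran from 1 to 7 of 13 leucine zipper partners, 0 to 1 of 4 EGR co-repressors and relatives, and 3 to 15 of 29 other immediate early genes. They ran from 0 to 3 of 19 kinases, 0 to 3 of 6 for serum response factor and its partners, 6 to 10 of 16 AP-1 targets and 6 to 8 of 12 EGR1 targets. The share of all tested probe sets called also moved, from 1.42% without OXLDL replicate 2 to 24.3% among brighter probe sets only. With array weights, where the count of 15 arose, that share was 18.5%. The cause was not tested.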

Other observations

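The nearest named and measured gene on each side of the 9 members gave 18 neighbours, of which 1 passed (5.56%, against 6.77% of all probe sets) and 17 did not, with log2 differences, OXLDL minus CON, of -0.32 to 0.35 among the 17. REEP2, which encodes a membrane-shaping protein of the endoplasmic reticulum and lies beside EGR1, rose by 0.43 (SE 0.07, limma adjusted p = 0.0174) while EGR1 fell. Its log2 values were 6.63, 6.64 and 6.62 in OXLDL and 6.12, 6.24 and 6.23 in CON. The call was lost without any 1 array other than the third of CON. ETF1, the translation release factor gene on the other side of EGR1, had a difference of 0.05 (SE 0.10, limma adjusted p = 0.771), and -0.05 without the third CON array. The neighbours of JUN, MYSM1 and FGGY, had differences of -0.12 and 0.33 (limma adjusted p = 0.409 and 0.154), and ran from -0.17 to -0.06 and from 0.19 to 0.40 without any 1 array. These neighbours were examined after the members' values were seen.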
